A study of Rattus norvegicus with 12 samples.

Results

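The genes described here carry carbon from pyruvate, branched-chain amino acids and ketone bodies into the tricarboxylic acid (TCA) cycle of the rat heart. They are 44 nuclear genes chosen by symbol, and 43 of them have a row among the 30560 genes listed. Bckdk, the kinase of the branched-chain ketoacid dehydrogenase, was not analysed here. All 43 had enough counts to be tested, among 18182 genes tested in all. RNA from the hearts of 12 male Wistar rats was sequenced, with 1 library per rat. Sham rats (rats 12, 17, 32 and 38) had their chest opened without a suture on the artery and were given vehicle, a carboxymethylcellulose solution. MI rats (rats 36, 57, 61 and 89) had a myocardial infarction, made by a permanent ligature on the descending coronary artery, and were given vehicle. MI + UA rats (rats 29, 58, 64 and 66) had the same ligature and were given urolithin A (UA), a gut microbial metabolite of dietary ellagitannins that is known to induce mitophagy. Surgery was done at an age of 7 weeks and gavage was daily for 8 weeks. RNA came from formalin-fixed, paraffin-embedded sections of the middle left ventricle of overnight-fasted rats. Such a section can hold scar and surviving muscle together.

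Rat 66 carries the MI + UA label, but the study lists a rat of this number among the vehicle-treated infarcted rats in its echocardiography data. It was kept as MI + UA, and results that rest on it are given with and without it. Libraries held 6228706 to 19031695 reads on genes. Member genes had between 71 and 20877 counts in a library. Of the reads in the count files, 46.85% to 48.35% were on genes in Sham, 43.27% to 44.81% in MI and 42.9% to 47.17% in MI + UA. The part of this difference in the results was not tested. Values are CPM, read counts scaled to the size of the library after TMM correction, and rats are always listed in the order above. CPM values depend on transcript length, so they are compared between rats and not between genes.

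Pyruvate enters mitochondria through the pyruvate carrier and is turned into acetyl-CoA by the pyruvate dehydrogenase (PDH) complex, which PDH kinases switch off and PDH phosphatases switch on. The TCA cycle oxidises acetyl-CoA and hands electrons to the respiratory chain, while the malate-aspartate shuttle brings reducing power in from the cytosol. The heart is known as an omnivore that burns mostly fatty acids, but also lactate, pyruvate, ketone bodies and branched-chain amino acids, and failing hearts are known for shifts among these fuels.

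After infarction most genes of the module were lower. In MI versus Sham, 37 of the 43 genes fell in edgeR's quasi-likelihood test at an adjusted p under 0.05 and 0 rose, where 5.53% of all genes tested were called lower and 5.82% higher. Among the 5408 genes at or above the lowest average level of a member, 14.2% were called lower. All 43 had a log2 fold change below 0, as did 47% of all genes tested and 56.5% of the 5408. Their median was -0.48, so the typical member fell by 28.1%, beside a median of 0.026 over all genes tested. Individual values ran from -0.80 for Pdk4 to -0.18 for Bdh1. The 4 MI rats lay below the 4 Sham rats without overlap at 33 of the 43 genes, where 7.56% of all genes and 17.4% of the 5408 did so. The 6 genes that did not pass the test were Dlat, Pdhx, Pdp1, Dbt, Ppm1k and Bdh1. Of the 37 calls, 29 held in each of the 18 alternative fits, including each that left out 1 rat.

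Averaged over the 43 genes, and relative to the Sham mean, the log2 CPM of the Sham rats was -0.13, 0.047, 0.029 and 0.054. It was -0.42, -0.41, -0.57 and -0.49 in the MI rats and -0.38, -0.48, -0.48 and -0.28 in the MI + UA rats. Every infarcted rat therefore lay below every Sham rat, with rat 12 lowest in Sham, rat 61 lowest in MI and rat 66 highest of the infarcted rats.

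**Figure D1:**
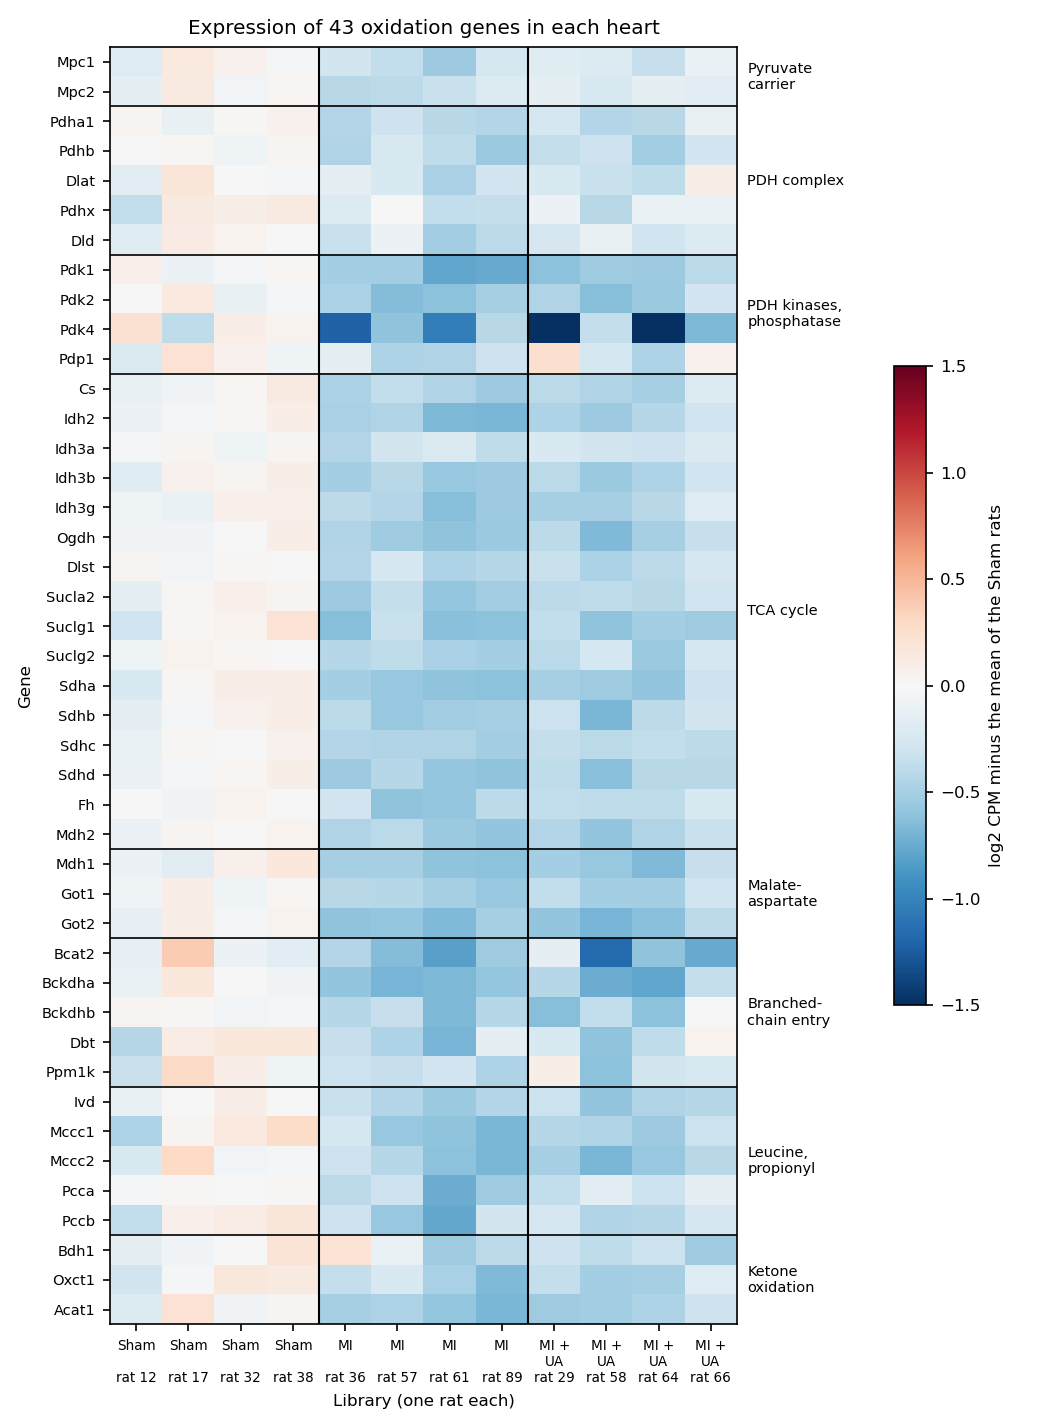
Level of each of the 43 genes (rows, grouped by pathway step) in each of the 12 rats (columns), as log2 CPM minus the mean of the Sham rats; blue is lower and red is higher. Both infarcted groups are blue across nearly all rows, with medians of the 43 fold changes of -0.48 for MI and -0.40 for MI + UA against Sham; the colour scale ends before the Pdk4 values of rats 29 and 64, which are lower than drawn.

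Heart muscle markers fell by a similar amount. Of 14 cardiomyocyte markers tested, 11 were lower in MI than in Sham. The log2 fold changes of the 14 had a median of -0.42 and ran from -1.08 to -0.23, with the largest falls for Myh6 (-1.08) and Tnni3 (-0.67). Their summed level was 58020 to 65590 CPM in Sham, 41060 to 47987 in MI and 42973 to 55308 in MI + UA. Fibroblast markers were higher at 7 of 9 genes (summed level 1135 to 1444 CPM in Sham and 2199 to 3587 in MI) and macrophage markers at 8 of 9 (131 to 150 CPM in Sham and 228 to 279 in MI). Of 7 endothelial markers 1 was lower, and of 6 smooth muscle and pericyte markers 4 were higher. None of the adipocyte, blood cell and epithelial markers tested (2, 3 and 2 genes) was called, and no listed marker with a row was at 0 in all libraries.

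In each rat the mean log2 CPM of the 43 genes was also set beside that of the 14 cardiomyocyte markers, a description added after the values were seen. Relative to the Sham mean, this difference was -0.086 to 0.12 in Sham, -0.052 to 0.011 in MI and -0.025 to 0.053 in MI + UA. The 3 ranges overlapped, with group means of 0, -0.024 and -0.00037. The marker mean includes Myh6, which had the largest fall of the 14, and the difference was not computed without Myh6. At 30 of the 43 genes the fall in MI versus Sham was larger than the median fall of the markers. In sections of whole tissue, fewer cardiomyocytes and less RNA per cardiomyocyte cannot be told apart.

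**Figure D2:**
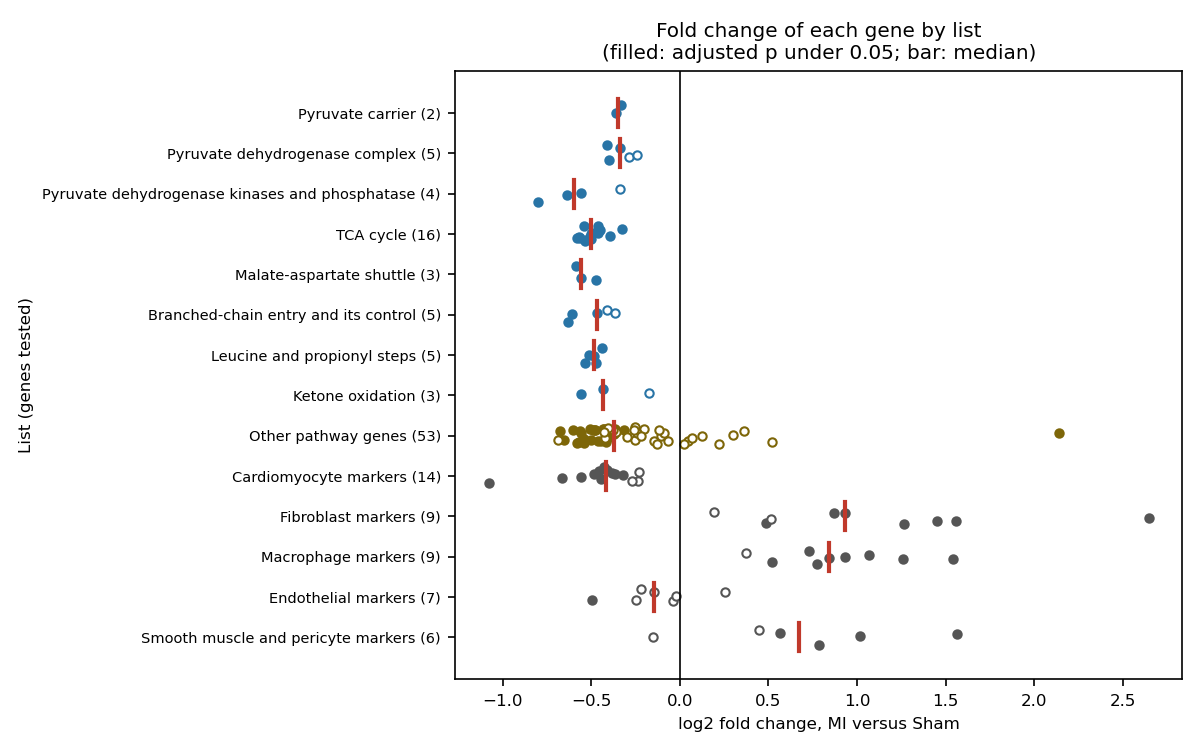
log2 fold change in MI versus Sham (horizontal axis) of every gene tested in each list (rows, number of genes in brackets); each point is a gene, filled where the adjusted p was under 0.05, and the bar is the list's median. The genes of the 8 pathway blocks lie between -0.80 and -0.18 and the cardiomyocyte markers between -1.08 and -0.23, while fibroblast and macrophage markers lie to the right of 0.

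Pyruvate enters first. Both subunits of the mitochondrial pyruvate carrier fell in MI, with a block median of -0.35. Mpc1 (ENSRNOG00000012415) stood at 155, 196, 186 and 175 CPM in Sham, 147, 137, 122 and 148 CPM in MI and 156, 154, 139 and 165 CPM in MI + UA. All MI rats were below all Sham rats, and the MI + UA rats overlapped both groups. Its log2 fold change in MI versus Sham was -0.36 ± 0.09 (SE, edgeR adjusted p = 0.0101). Its partner Mpc2 (ENSRNOG00000003150) had 41.1, 49.4, 43.8 and 45.9 CPM in Sham, 33.6, 34.2, 35.7 and 39.1 in MI and 41, 37.9, 41.1 and 40.3 in MI + UA. Again MI and Sham did not overlap. Mpc2 had a log2 fold change of -0.34 ± 0.09 (SE, edgeR adjusted p = 0.0148), and without Sham rat 17 its adjusted p was 0.0583.

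The PDH complex, which commits pyruvate carbon to oxidation, had a block median of -0.34. Pdha1 (ENSRNOG00000025383), the catalytic alpha subunit, had 205, 184, 202 and 208 CPM in Sham, 147, 161, 150 and 147 in MI and 166, 147, 150 and 185 in MI + UA. Its beta partner Pdhb (ENSRNOG00000007895) had 100, 102, 96.1 and 103 CPM in Sham, 73.6, 84.8, 76.8 and 67.9 in MI and 78, 80.7, 69.6 and 82 in MI + UA. For both subunits MI lay wholly below Sham, and only rat 66 of the MI + UA rats reached a Sham value, for Pdha1. The log2 fold changes were -0.40 ± 0.08 (SE, edgeR adjusted p = 0.00299) for Pdha1 and -0.41 ± 0.08 (SE, edgeR adjusted p = 0.00265) for Pdhb.

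Of the remaining 3 genes of the complex, Dld, the dihydrolipoamide dehydrogenase shared with other ketoacid dehydrogenases had a log2 fold change of -0.34 (edgeR adjusted p = 0.0243) with overlapping groups. Its adjusted p was above 0.05 in 5 fits that left out 1 rat (0.0819 without Sham rat 17, 0.0693 without 32, 0.0604 without 38, 0.0945 without MI rat 61 and 0.0746 without 89). The acetyltransferase core Dlat and its binding protein Pdhx had log2 fold changes of -0.29 (edgeR adjusted p = 0.0800) and -0.24 (edgeR adjusted p = 0.226) and did not pass. Dlat had an adjusted p of 0.0338 without MI + UA rat 66 and 0.0293 in a fit of MI and Sham alone, and without Sham rat 12 Pdhx had 0.0475.

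Of the 4 regulators of the complex among the 43 genes, the 3 kinases fell in MI and the phosphatase Pdp1 did not pass. The median over these 4 was -0.60. Regulators outside the 43 did not keep this split between kinases and phosphatases. The phosphatase Pdp2 had 43.9 to 54.2 CPM in Sham and 26.2 to 42.5 in MI, and the phosphatase regulator Pdpr 175 to 214 and 149 to 165. The kinase Pdk3 had 3.58 to 5.14 CPM in Sham and 3.45 to 6.85 in MI. Pdk1 (ENSRNOG00000001517), one of the kinases, had the smallest p of all 43 genes in this comparison. It stood at 137, 123, 129 and 133 CPM in Sham, 91.6, 91.1, 76 and 77.4 CPM in MI and 85.2, 89.8, 89.2 and 98.9 CPM in MI + UA. No infarcted rat came near a Sham rat, and Pdk1 fell by 35.8% in MI versus Sham (log2 fold change -0.64 ± 0.08, SE, edgeR adjusted p = 5.09e-05). Pdk2 (ENSRNOG00000004172), the widely expressed kinase, went from 399, 444, 372 and 395 CPM in Sham to 290, 255, 263 and 284 in MI and 293, 257, 274 and 329 in MI + UA. Both infarcted groups were below Sham without overlap, and the log2 fold change in MI versus Sham was -0.56 ± 0.09 (SE, edgeR adjusted p = 0.000216).

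Pdk4 (ENSRNOG00000009565), the kinase induced by fasting and fatty acids, was the most variable of the 43 genes between rats of a group, with a pooled SD of 0.53 on the log2 CPM scale against a median of 0.12. It had 1428, 932, 1308 and 1264 CPM in Sham, 525, 800, 592 and 910 in MI and 288, 954, 411 and 761 in MI + UA. The MI rats were all below the Sham rats, by a narrow gap between 910 and 932 CPM, while rat 58 of MI + UA was above rat 17 of Sham. For Pdk4 the log2 fold change in MI versus Sham was -0.80 ± 0.25 (SE, edgeR adjusted p = 0.0448). DESeq2 gave an adjusted p of 0.109, edgeR with its filterByExpr filter 0.0542, and leaving out Sham rat 12, 32 or 38 or MI rat 36, 57 or 61 gave 0.119, 0.107, 0.0973, 0.123, 0.0523 and 0.130. The log2 fold change in these 8 fits stayed between -0.87 and -0.68. The phosphatase Pdp1 (ENSRNOG00000016180), which reactivates the complex, had 83.4, 113, 102 and 93.2 CPM in Sham, 88.7, 70.6, 71.4 and 78.6 in MI and 115, 80.8, 70.6 and 102 in MI + UA. MI and Sham overlapped at rats 36 and 12, and the log2 fold change of -0.34 did not pass (edgeR adjusted p = 0.106). In a fit of these 2 groups alone it had an adjusted p of 0.0262, and without a filter on low counts 0.0498.

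**Figure D3:**
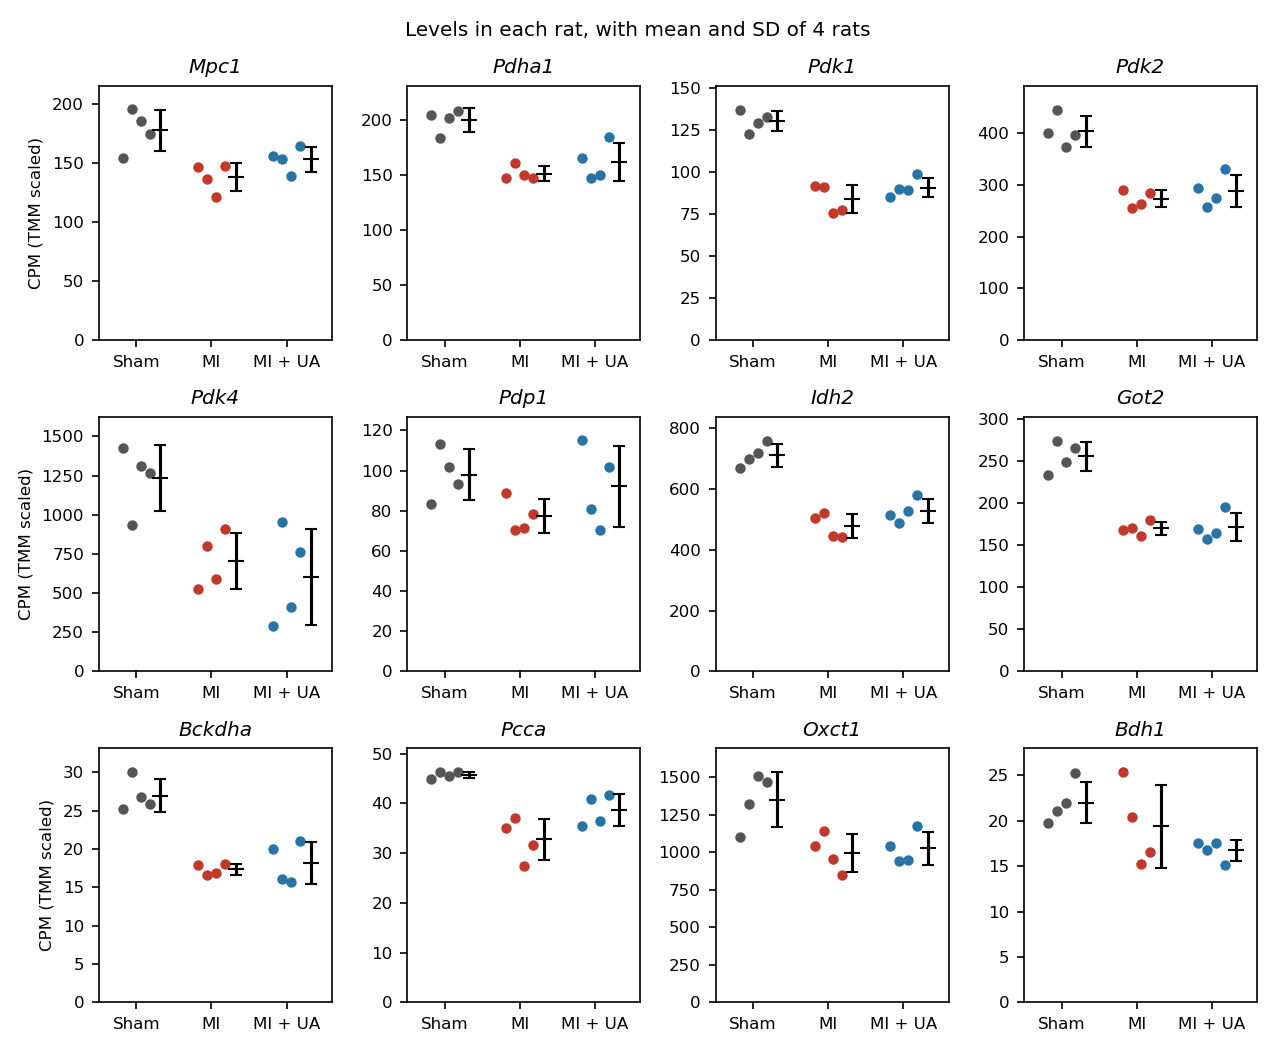
CPM of 12 of the genes in each rat (points; 4 per group, vertical axis from 0), with the group mean and SD beside them. Pdk1, Idh2 and Got2 separate Sham from both infarcted groups, Pdk4 and Pdp1 scatter widely, and Bdh1 overlaps between MI and Sham.

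The TCA cycle is the largest block. All 16 of its genes fell in MI versus Sham, from -0.58 for Sdha to -0.33 for Idh3a, and at all 16 the MI rats lay below the Sham rats without overlap. With a block median of -0.50, its typical gene fell by 29.3%. The genes called were citrate synthase Cs (-0.46), the isocitrate dehydrogenases, the oxoglutarate dehydrogenase parts Ogdh (-0.54) and Dlst (-0.39), the succinyl-CoA ligases, the 4 succinate dehydrogenase subunits, fumarase Fh (-0.46) and Mdh2 (-0.50).

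Idh2 (ENSRNOG00000013949), the NADP-dependent isocitrate dehydrogenase that also feeds antioxidant defence, had 669, 700, 718 and 759 CPM in Sham, 506, 521, 446 and 443 in MI and 514, 489, 527 and 580 in MI + UA. The lowest Sham rat was above the highest infarcted rat. Idh2 had a log2 fold change of -0.57 ± 0.08 (SE, edgeR adjusted p = 9.49e-05). Idh3a (ENSRNOG00000010277), the catalytic subunit of the NAD-dependent enzyme of the cycle, had the smallest fall of the block. It stood at 151, 157, 146 and 157 CPM in Sham, 113, 126, 131 and 117 in MI and 130, 126, 123 and 131 in MI + UA. The groups again did not overlap with Sham, with a log2 fold change of -0.33 ± 0.07 in MI (SE, edgeR adjusted p = 0.00563). The other NAD-dependent subunits Idh3b and Idh3g had -0.52 and -0.50.

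Succinyl-CoA ligase makes ATP or GTP depending on its beta subunit. Sucla2 (ENSRNOG00000017481), the ATP-forming one, had 71, 79.4, 82.7 and 80.2 CPM in Sham, 53.6, 61.2, 52.2 and 54.3 in MI and 59.8, 60.2, 58.7 and 63.4 in MI + UA. Suclg2 (ENSRNOG00000005686), the GTP-forming one, had 80.4, 87, 85.7 and 83.9 CPM in Sham, 62.4, 64.6, 60 and 59.3 in MI and 63.4, 70.4, 57.4 and 71 in MI + UA. Both fell without overlap, by 29.5% and 27.0%, and the shared alpha subunit Suclg1 fell by 32.4%.

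The 4 succinate dehydrogenase genes, which link the cycle to the respiratory chain, fell by 27.4% to 33.1%. Sdhd (ENSRNOG00000022980), a membrane anchor, had 143, 149, 155 and 162 CPM in Sham, 104, 113, 102 and 99.9 in MI and 117, 98.5, 114 and 114 in MI + UA. The gap between Sham and both infarcted groups was clear, with a log2 fold change of -0.54 ± 0.08 in MI (SE, edgeR adjusted p = 0.000139). Sdhc, the other anchor, had the smallest spread of all 43 genes (pooled SD 0.049 on the log2 CPM scale).

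Promoter sequences were looked up because these genes moved together. RefSeq promoters of the GRCr8 assembly, from 250 bases before to 50 bases after the start, were matched by symbol for 38 of the 43 genes. They were searched on both strands for 2 elements of factors known to act on mitochondrial genes, chosen with the results known. The letters of the nuclear respiratory factor 1 (NRF1) element, which are GCGC, any 2 bases and GCGC again, were in 3 of the 38 (7.89%), beside 5.58% of 33469 promoters. The letters TNAAGGTCA of the estrogen-related receptor element were in 1 of 38, that of Sdhd (2.63%), beside 1.2% of all. The 3 genes with the NRF1 letters are printed 5′ to 3′ on the gene's own strand, with the matches in capitals. The Sdha stretch (chr1:30764453-30764561, plus strand) holds 3 matches, those of Sucla2 (chr15:55161840-55161879, plus strand) and Dld (chr6:53652330-53652369, minus strand) hold 1 each.
Sdha: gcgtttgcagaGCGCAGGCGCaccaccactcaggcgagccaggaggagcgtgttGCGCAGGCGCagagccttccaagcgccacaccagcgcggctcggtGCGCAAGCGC
Sucla2: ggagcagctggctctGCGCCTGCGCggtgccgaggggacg
Dld: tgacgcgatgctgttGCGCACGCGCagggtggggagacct
In MI versus Sham these genes had log2 fold changes of -0.58, -0.50 and -0.34. A match of letters does not show that a factor bound there.

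The malate-aspartate shuttle fell at all 3 of its enzyme genes, with a block median of -0.56. Mdh1 (ENSRNOG00000008103), the cytosolic malate dehydrogenase, had 343, 327, 384 and 406 CPM in Sham, 258, 258, 239 and 237 in MI and 256, 246, 229 and 287 in MI + UA. Got1 (ENSRNOG00000016356), the cytosolic aspartate aminotransferase, had 250, 278, 249 and 266 CPM in Sham, 195, 194, 185 and 176 in MI and 202, 183, 183 and 212 in MI + UA. Got2 (ENSRNOG00000011782), its mitochondrial counterpart, had 234, 274, 249 and 265 CPM in Sham, 168, 171, 161 and 180 in MI and 169, 157, 165 and 195 in MI + UA. For none of these genes did an infarcted rat reach the lowest Sham rat. In MI versus Sham the log2 fold changes were -0.56 ± 0.09 for Mdh1 (SE, edgeR adjusted p = 0.000239), -0.48 ± 0.08 for Got1 (SE, edgeR adjusted p = 0.000379) and -0.59 ± 0.08 for Got2 (SE, edgeR adjusted p = 9.22e-05).

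Branched-chain amino acids are first transaminated and then decarboxylated by the branched-chain ketoacid dehydrogenase. The block of these entry genes had a median of -0.47, and 3 of 5 genes fell. Bckdha (ENSRNOG00000020607), the catalytic alpha subunit, had 25.2, 30, 26.8 and 25.9 CPM in Sham, 17.9, 16.6, 16.9 and 18 in MI and 20, 16.1, 15.7 and 21 in MI + UA. Both infarcted groups were below Sham without overlap, and Bckdha fell by 35.3% in MI (log2 fold change -0.63 ± 0.11, SE, edgeR adjusted p = 0.000779). Bckdhb (ENSRNOG00000009928), the beta subunit, had 40, 39.3, 37.9 and 38.4 CPM in Sham, 29, 30.7, 24.3 and 28.8 in MI and 24.9, 30.1, 25.4 and 38.7 in MI + UA. Rat 66 stood within the Sham range while the other 3 MI + UA rats stood with the MI rats. For Bckdhb the log2 fold change in MI versus Sham was -0.47 ± 0.12 (SE, edgeR adjusted p = 0.0156), with an adjusted p of 0.0629 without MI rat 61.

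Bcat2, the mitochondrial aminotransferase, had a log2 fold change of -0.61 (edgeR adjusted p = 0.0243), with an adjusted p of 0.113 without Sham rat 17 and 0.0814 without MI rat 61. Ppm1k (ENSRNOG00000006893), the phosphatase that switches the dehydrogenase on, had 41.3, 63.5, 55.6 and 49.7 CPM in Sham, 41.5, 40.8, 42.6 and 37.6 in MI and 55.1, 33.8, 42.9 and 43.9 in MI + UA. Sham rat 12 lay among the MI rats, and the log2 fold change of -0.37 did not pass (edgeR adjusted p = 0.0783). Without Sham rat 12 Ppm1k had -0.47 with an adjusted p of 0.0255, and without MI + UA rat 58 it had an adjusted p of 0.0437. With all rats kept it had 0.0364 without a filter on low counts and 0.0284 in a fit of MI and Sham alone. The core subunit Dbt had -0.41 (edgeR adjusted p = 0.0694). With all rats kept, DESeq2 gave an adjusted p of 0.0467, edgeR without a filter on low counts 0.0224 and a fit of MI and Sham alone 0.0348. It was also under 0.05 in 4 fits that left out 1 rat (0.0147 without Sham rat 12, 0.0411 without MI rat 89, and 0.0485 and 0.0427 without MI + UA rats 58 and 66).

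All 5 genes of the later leucine steps and of propionyl-CoA carboxylation fell in MI, with a median of -0.49. Ivd (ENSRNOG00000009421), isovaleryl-CoA dehydrogenase of the leucine route, had 106, 115, 123 and 115 CPM in Sham, 90.7, 84.4, 77.8 and 84.7 in MI and 91.3, 76, 83.9 and 85.1 in MI + UA. Infarcted and Sham rats did not overlap, and the log2 fold change was -0.44 ± 0.08 (SE, edgeR adjusted p = 0.00114). Pcca (ENSRNOG00000057042), the biotin-bearing subunit of propionyl-CoA carboxylase, was almost constant in Sham, at 45, 46.3, 45.5 and 46.3 CPM. It stood at 35, 37, 27.4 and 31.7 CPM in MI and 35.4, 41, 36.5 and 41.7 CPM in MI + UA, all below Sham. In MI versus Sham Pcca had a log2 fold change of -0.48 ± 0.10 (SE, edgeR adjusted p = 0.00230). Mccc1 and Mccc2, the subunits of methylcrotonyl-CoA carboxylase, had -0.53 and -0.52, and Pccb, the partner of Pcca, had -0.47. The call of Mccc1 was lost without Sham rat 38 (adjusted p = 0.0708) or MI rat 89 (0.0521), and that of Pccb without Sham rat 17, 32 or 38 (0.0641, 0.0721 and 0.0943) or MI rat 57 or 61 (0.0522 and 0.0910).

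Ketone oxidation turns hydroxybutyrate into acetyl-CoA in 3 steps. The first enzyme, Bdh1 (ENSRNOG00000001736), had 19.8, 21.1, 21.9 and 25.2 CPM in Sham, 25.4, 20.4, 15.2 and 16.6 in MI and 17.6, 16.8, 17.5 and 15.1 in MI + UA. MI rat 36 was above every Sham rat and rats 61 and 89 below every one, and the log2 fold change of -0.18 did not pass (95% confidence interval -0.47 to 0.11, edgeR adjusted p = 0.487). Oxct1 (ENSRNOG00000043094), which activates acetoacetate, had 1100, 1323, 1508 and 1469 CPM in Sham, 1044, 1144, 954 and 847 in MI and 1044, 940, 947 and 1175 in MI + UA. Rats 12 and 57 made MI and Sham overlap. Oxct1 had a log2 fold change of -0.44 ± 0.11 (SE, edgeR adjusted p = 0.0102), with an adjusted p of 0.0511 without Sham rat 32. Acat1 (ENSRNOG00000007862), the thiolase that closes both the ketone and the isoleucine route, had 145, 195, 162 and 172 CPM in Sham, 119, 122, 112 and 104 in MI and 116, 117, 122 and 135 in MI + UA. No infarcted rat reached Sham for Acat1, with a log2 fold change of -0.56 ± 0.09 in MI (SE, edgeR adjusted p = 0.000400).

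Neighbouring genes of the same pathways were listed apart from the 44. Of 58 listed, 53 were tested, of which 24 were lower and 1 higher in MI versus Sham, around a median of -0.37 on the log2 scale. The strongest falls among the called ones were those of Aldh6a1 (-0.67), the methylmalonate semialdehyde dehydrogenase of valine breakdown, Acss1 (-0.66), the mitochondrial acetyl-CoA synthetase, and Echs1 (-0.60), enoyl-CoA hydratase. Lactate dehydrogenase B, Ldhb, had -0.48 (edgeR adjusted p = 0.000844). Ldha (-0.26, edgeR adjusted p = 0.0946), the lactate transporter Slc16a1 (0.12) and the lipoate synthase Lias (-0.36, edgeR adjusted p = 0.160) did not pass.

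The 1 neighbouring gene that rose was Bcat1 (ENSRNOG00000015514), the cytosolic branched-chain aminotransferase. It had 0.376, 1.15, 2.19 and 1.43 CPM in Sham, 5.12, 4.39, 6.23 and 6.19 in MI and 2.8, 5.65, 8.93 and 4.56 in MI + UA, from 3 to 13 counts in a Sham library. Every infarcted rat was above every Sham rat. In MI versus Sham Bcat1 had a log2 fold change of 2.14 ± 0.38 (SE, edgeR adjusted p = 0.000774), opposite in direction to the mitochondrial Bcat2. Fibroblast and macrophage markers were higher in the same rats, and their part in this rise was not tested.

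The comparison of MI + UA with MI asks how the module stood in infarcted rats given UA. By edgeR, 0 of the 43 genes passed an adjusted p of 0.05, as did 0% of all genes tested, and DESeq2 called 0 of the 43. The estimate was above 0 for 39 genes and below 0 for 4, where 51% of all genes tested and 56% of the 5408 were above 0. The median was 0.085, or 6.05%, beside 0.0047 over all genes. These 43 values come from the same 8 rats and are not independent. Without rat 66 the median was 0.036, with 33 genes above 0 and 10 below, so the median was over 2 times as large with that rat as without it. Cardiomyocyte markers had a median of 0.032 in the same comparison and ran from -0.14 for Tcap to 0.39 for Myh6. The medians were 0.069 for fibroblast, -0.073 for macrophage, -0.084 for endothelial and -0.21 for smooth muscle and pericyte markers. In each of these lists 0 genes were called.

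At an unadjusted p under 0.05, 1 of the 43 genes differed, where 3.79% of all genes did. It was Pcca, with 18.2% more in MI + UA than in MI (log2 fold change 0.24, 95% confidence interval 0.04 to 0.44, edgeR unadjusted p = 0.0209, adjusted p = 1.00), and rats 29 and 64 of MI + UA were below rat 57 of MI. The number of genes with an unadjusted p under 0.05 moved with single rats in both directions. It was 0 without MI + UA rat 66, 2 without MI + UA rat 64, 3 without MI + UA rat 58 or MI rat 36 and 4 without MI rat 57. Pdp1 (0.26, interval -0.01 to 0.53) and Mpc2 (0.17, interval -0.01 to 0.35) came next by p. At 1 of 43 genes the MI + UA rats all exceeded the MI rats, beside 1.18% of all genes. This was Sdhc, named after its values were seen, with 117, 116, 116 and 110 CPM in MI and 123, 119, 122 and 120 in MI + UA. The size for Sdhc was 5.48% (log2 fold change 0.077, interval -0.07 to 0.22).

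The intervals bound what a difference between MI + UA and MI could be. For the 16 TCA genes the point estimates ran from 0.033 to 0.14 and no upper bound exceeded 0.31, while their falls in MI versus Sham had a median of -0.50. The shuttle genes lay at 0.04 for Mdh1, 0.06 for Got1 and 0.01 for Got2, with an upper bound of at most 0.22. Pdk4 had -0.23 with an interval from -0.76 to 0.30, the widest of the module. The block medians were 0.16 for the pyruvate carrier, 0.084 for the PDH complex, 0.096 for its regulators, 0.087 for the TCA cycle, 0.037 for the shuttle, 0.089 for branched-chain entry, 0.085 for leucine and propionyl steps and 0.042 for ketone oxidation. Without rat 66 they were 0.14, 0.032, 0.039, 0.047, -0.027, 0.010, 0.043 and -0.030 in the same order, so those of the shuttle and of ketone oxidation turned below 0. The TCA estimates then ran from -0.0062 to 0.11, with 1 of 16 below 0, and those of Mdh1, Got1 and Got2 from -0.056 to 0.019. Of the 53 neighbouring genes 0 passed, with a median of 0.050.

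**Figure D4:**
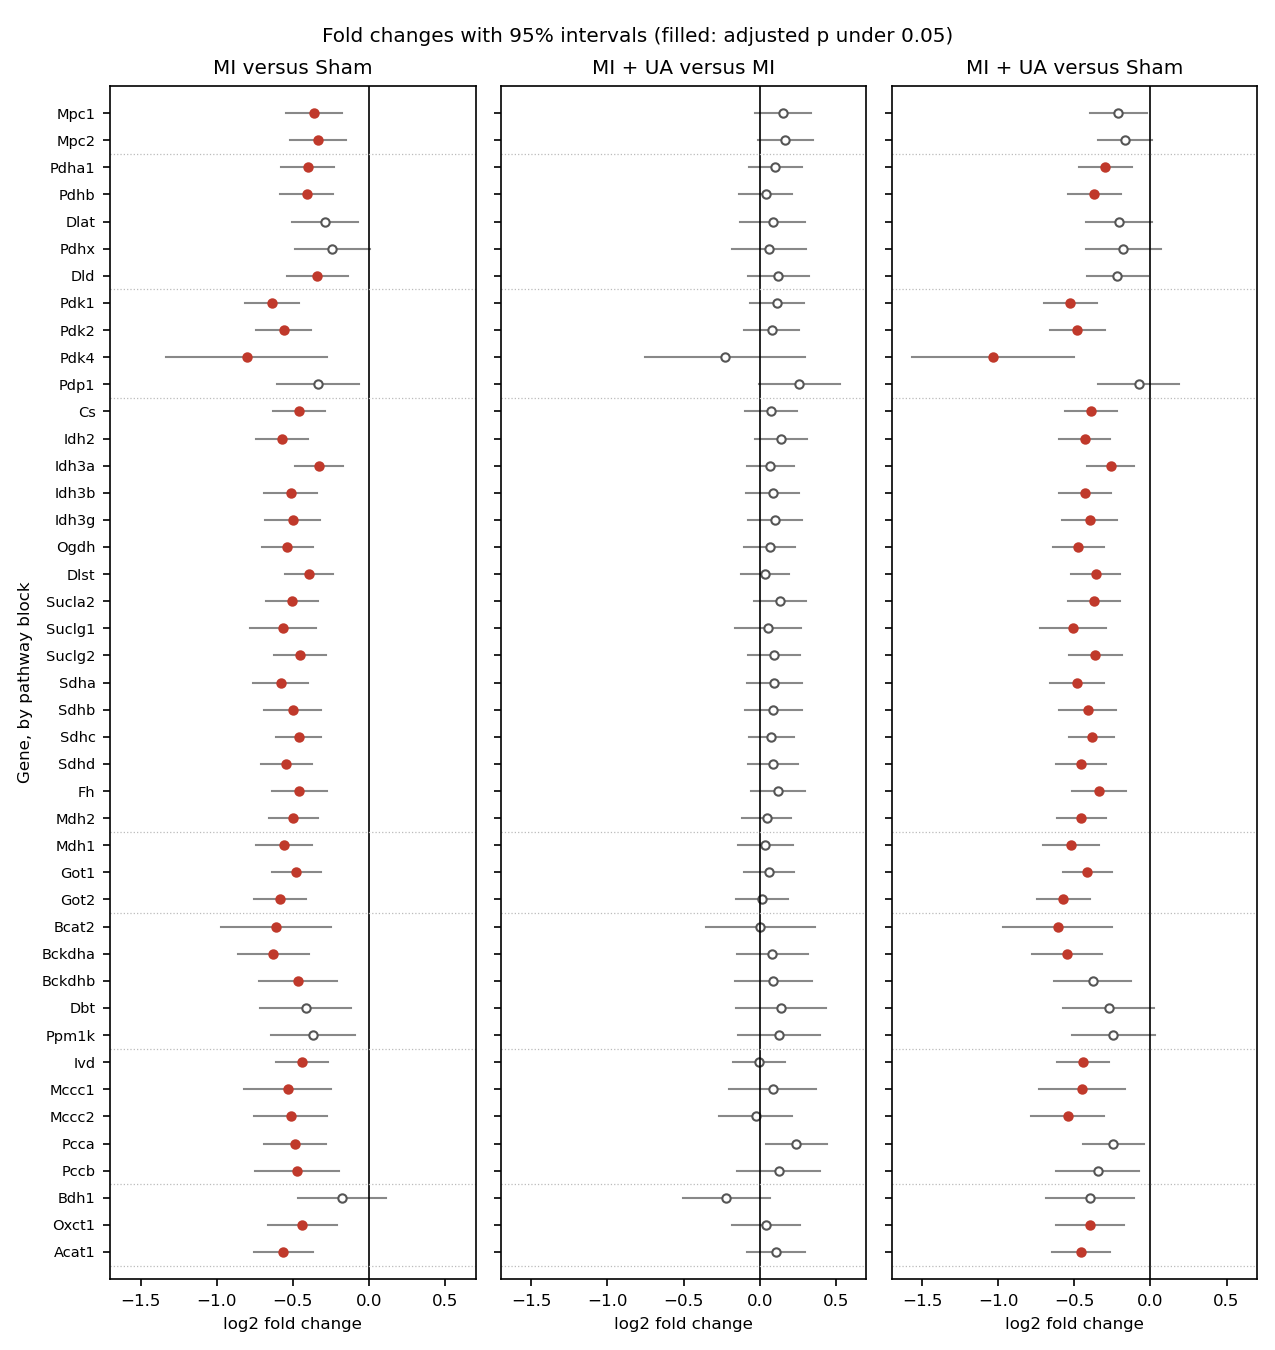
log2 fold change (horizontal axis) of each of the 43 genes (rows) with its 95% confidence interval in the 3 comparisons; filled points passed an adjusted p of 0.05. In MI versus Sham 37 are filled and in MI + UA versus Sham 31, all left of 0, while 0 are filled in MI + UA versus MI, where estimates run from -0.23 to 0.26.

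Set against Sham, the MI + UA rats were lower at 31 of the 43 genes in edgeR's test, where 4.27% of all genes and 11.4% of the 5408 were called lower, and 0 were higher, where 5.16% of all genes were. This comparison shares its Sham rats with MI versus Sham. The median was -0.40, and at 29 genes the groups did not overlap, where 6.46% of all genes and 14.6% of the 5408 did not. Against Sham, 11 of 14 cardiomyocyte markers were also lower in MI + UA (median -0.38). Fibroblast markers were higher at 7 of 9 genes (median 1.1) and macrophage markers at 8 of 9 (median 0.73). Of 7 endothelial markers 1 was lower, and of 6 smooth muscle and pericyte markers 1 was higher. The TCA cycle (16 of 16 genes, median -0.41) and the shuttle (3 of 3, median -0.52) were called throughout. For the pyruvate carrier 0 of 2 genes passed, with log2 fold changes of -0.21 for Mpc1 (edgeR adjusted p = 0.159) and -0.17 for Mpc2 (edgeR adjusted p = 0.272), beside -0.36 and -0.34 in MI versus Sham. In MI + UA versus MI these 2 genes had unadjusted p-values of 0.102 and 0.0644. Pcca had -0.24 (edgeR adjusted p = 0.130), Pdp1 -0.08 (95% confidence interval -0.35 to 0.19, edgeR adjusted p = 0.794) and Bckdhb -0.38 (edgeR adjusted p = 0.0541). Without MI + UA rat 64 the estimate for Pdp1 was 0.027. Without rat 66 Bckdhb had -0.54 with an adjusted p of 0.00183, and with all rats kept DESeq2 gave it 0.0385 and 4 other settings of edgeR between 0.0306 and 0.0479. Dlat went from -0.21 (edgeR adjusted p = 0.258) to -0.32 with an adjusted p of 0.0362 without rat 66, and the call of Bcat2 was lost without it (adjusted p = 0.0651), so 32 genes were called without rat 66. Bdh1 had -0.40 (edgeR adjusted p = 0.0824) with all MI + UA rats below all Sham rats, and an adjusted p of 0.0246 in a fit of these 2 groups alone and 0.0355 without MI rat 36. Pccb was called without Sham rat 12 (adjusted p = 0.0256). Pdk4 was lowest in this comparison too, at -1.03 ± 0.26 (SE, edgeR adjusted p = 0.0124), with an adjusted p of 0.0502 without MI + UA rat 64. Calls of 6 further genes were lost when single rats were left out, with the largest adjusted p at 0.0888 for Pdha1 (without MI + UA rat 64), 0.0886 for Idh3a (without Sham rat 38), 0.0508 for Fh (without MI + UA rat 29), 0.121 for Bcat2 (without Sham rat 17), 0.170 for Mccc1 (without Sham rat 38) and 0.0948 for Oxct1 (without Sham rat 32). Idh3a also had an adjusted p of 0.0509 with all rats kept and no filter on low counts. Of the 31 calls 24 held in each of the 18 alternative fits.

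Ratios within a library do not depend on scaling between libraries, so 4 pairs of enzymes that share a step or a substrate were compared. The log2 ratio of Sucla2 to Suclg2 was -0.11 ± 0.06 (SD, n = 4) in Sham, -0.16 ± 0.07 in MI and -0.11 ± 0.11 in MI + UA, with an exact permutation p of 0.286 and 0.543 for MI versus Sham and for MI + UA versus MI. That of Pdk4 to Pdk2 was 1.60 ± 0.36 (SD, n = 4), 1.34 ± 0.40 and 0.92 ± 0.82 in the 3 groups (exact permutation p = 0.286 and 0.400). In the MI + UA rats this ratio ran from -0.024 in rat 29 to 1.89 in rat 58, which spans the whole range of Sham and MI. The Idh2 to Idh3a ratio was 2.22 ± 0.08 (SD, n = 4) in Sham, 1.97 ± 0.17 in MI and 2.04 ± 0.09 in MI + UA (exact permutation p = 0.0857 and 0.514). For Oxct1 to Bdh1 the values were 5.93 ± 0.13 (SD, n = 4), 5.70 ± 0.26 and 5.93 ± 0.24 (exact permutation p = 0.200 and 0.314). Rat 66 had the highest Oxct1 to Bdh1 ratio of the MI + UA rats (6.27). Without it the difference between MI + UA and MI was 0.113 in place of 0.229 for this pair, 0.0652 in place of 0.0471 for Sucla2 to Suclg2, -0.52 in place of -0.42 for Pdk4 to Pdk2 and 0.0396 in place of 0.0718 for Idh2 to Idh3a. All tests were two-sided, and adjusted over the 8 of them no p was under 0.503. The smallest p that 4 rats against 4 allow is 0.0286, so 1 ratio alone could not pass 0.05 after adjustment over 8 tests. These tests therefore cannot decide whether a single ratio differed.

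**Figure D5:**
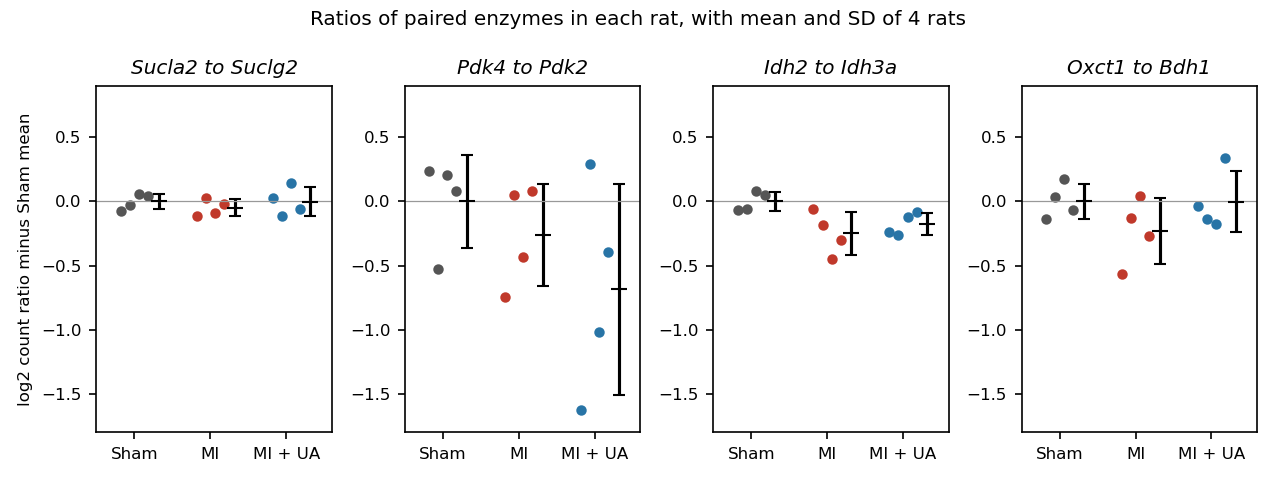
log2 ratio of counts of 4 enzyme pairs in each rat (points, 4 per group), relative to the Sham mean, with group mean and SD. The Idh2 to Idh3a ratio is lower in most MI rats than in Sham but overlaps at rat 36, and the Pdk4 to Pdk2 ratio spreads from -0.024 to 1.89 before centring within MI + UA alone.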

How the data were processed

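The authors mapped reads with STAR 2.6.1c to mRatBN7.2 and counted them per Ensembl gene with HTSeq (version not given in the sources used here). The deposited values are raw read counts, 1 column per rat. The library kit was strand-specific and ribosomal RNA was depleted, although the labels name polyA RNA. The strand setting of the counting is not given in the sources used here. Reads that HTSeq called ambiguous (3.18% to 3.84% of counted reads) are on no gene. The 13 mitochondrially encoded genes took 50.2% to 58.6% of reads on genes. Summary lines that name no gene stayed out of library sizes and tests: between 42.9% and 48.35% of counted reads were on genes. One more MI + UA library, left out by the authors, was not analysed here.

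Counts were tested with edgeR 4.0.16 (R 4.3.3) by the quasi-likelihood F test after TMM scaling, on genes with at least 10 counts in total, the 3 groups in 1 fit. P-values were adjusted by Benjamini and Hochberg over all 18182 genes, with a threshold of 0.05. Standard errors and 95% confidence intervals come from the F statistics. Ratios used log2 of counts plus 1 and exact permutation tests over rats (Python 3.11.15, scipy 1.17.1). Without Bckdk its planned ratio to Ppm1k fell away, so 8 tests were adjusted together. Scripts were tested on simulated data. DESeq2 1.42.0, DESeq2 size factors, TMM without mitochondrially encoded genes, no filter, filterByExpr, fits of 2 groups and leaving out each rat were alternatives.

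The members, pathway and marker lists were chosen with earlier results of these data known. Genes given per rat were the 2 smallest p-values of each block in MI versus Sham (all genes of blocks of 2 or 3), the 3 smallest in MI + UA versus MI and the genes of the ratios. Neighbouring genes named were up to 3 of the largest called changes in each direction and Ldha, Ldhb, Slc16a1 and Lias; some genes of this rule are not reported here. Any others were chosen after their values were seen.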

Additional observations from a re-analysis of the deposited data

Results flagged for a closer look

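In 6 of 141 groups of 4 rats, 1 rat stood apart by Dixon's ratio (its gap to the next rat over the range of the group, above the 95% critical value). About 1 group in 20, here 7, is flagged by chance. Sham rat 12 was the lowest for Pdhx (ratio 0.906, 33.5 CPM) and for Dbt (0.934, 46.3 CPM), and Sham rat 17 was the highest for Bcat2 (0.867, 26.7 CPM). MI rat 57 was the highest for Suclg1 (0.930, 57.4 CPM). MI + UA rat 58 was the lowest for Pdhx (0.939, 32.2 CPM), and MI + UA rat 66 was the highest for Fh (0.885, 67.4 CPM).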

How the results depend on the processing

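Between 36 and 41 members were called in MI versus Sham in the alternative fits with all rats, and 32 to 39 when 1 rat was left out. In MI + UA versus Sham the counts were 31 to 32 and 25 to 32, and in MI + UA versus MI 0 in each fit. The median of the members ran from -0.52 to -0.46 in MI versus Sham. In MI + UA versus MI it ran from 0.036 (without rat 66) to 0.12 (without rat 58). Another scaling moved the median of all genes by less than 0.1 on the log2 scale. When 1 rat was left out, estimates for MI + UA versus MI crossed 0 for 11 of the 28 genes named by rule, none of them called: Pdhb (-0.011 to 0.095), Mdh1 (-0.027 to 0.083), Got2 (-0.056 to 0.052), Bckdhb (-0.077 to 0.17), Ivd (-0.049 to 0.040), Oxct1 (-0.030 to 0.11), Ppm1k (-0.010 to 0.23), Pdk4 (-0.54 to 0.0026), Bcat1 (-0.39 to 0.17), Aldh6a1 (-0.055 to 0.15) and Acss1 (-0.012 to 0.12). No paired analysis was possible because the groups hold different rats. With 3 rats against 4 the smallest exact p is 0.0571, so leaving out a rat cannot bring a ratio past the threshold.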

Other observations

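Further genes around the module, chosen after their values were seen, are given by their log2 fold change in MI versus Sham. The carriers that complete the malate-aspartate shuttle fell together with its enzymes, at -0.43 for the oxoglutarate carrier Slc25a11, -0.40 for the aspartate-glutamate carrier Slc25a12 and -0.37 for Slc25a13 (edgeR adjusted p = 0.00493, 0.00241 and 0.0156). Of the malic enzymes, which make pyruvate from malate, the cytosolic Me1 had -0.56 (edgeR adjusted p = 0.000287) and the mitochondrial Me3 -0.49 (edgeR adjusted p = 0.00299), while Me2 had 0.05 (edgeR adjusted p = 0.907). In the valine route Hibch had -0.56 and Hibadh -0.50, and Mmut, which passes methylmalonyl-CoA to the TCA cycle, had -0.48. In MI + UA versus MI, Hibch was the 1 neighbouring gene with an unadjusted p under 0.05 (0.25, edgeR unadjusted p = 0.0388, adjusted p = 1.00).

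Spread between rats of a group differed among the 43 genes. The pooled SD of log2 CPM was 0.049 for Sdhc and 0.068 for Idh3a at the low end, and 0.30 for Bcat2 and 0.53 for Pdk4 at the high end.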
